A study of Mus musculus with 2 samples.

Results

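The DNA replication machinery was described here through 32 genes, chosen by symbol out of 32285 features: the replicative helicase, its loaders, the sliding clamp and clamp loader, the polymerases, lagging strand enzymes, enzymes of nucleotide supply, and fork protection and checkpoint genes. All 32 symbols matched exactly 1 feature each. Splenic immune cells of the C57BL/6 strain were measured one by one with 10x Genomics 3′ tag libraries, 1 library from an RPA1 conditional knockout (CKO) and 1 from the wild type (WT). RPA1 is the large subunit of the protein that coats single-stranded DNA at replication forks, and the series title names its role in T cells as the subject. The labels give neither the Cre driver, nor the deleted exons, nor an age, nor how many mice entered a library.

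Before replication, Cdc6 and Cdt1 load the ring of 6 MCM proteins onto DNA, and Cdc45 and the GINS proteins then turn that ring into the active helicase. Primase and polymerase alpha lay down primers, the RFC clamp loader places PCNA on them, and polymerases delta and epsilon copy the strands. Most of these genes are transcribed more in dividing cells, under E2F control. Their level in a spleen thus depends both on how many cells divide and on how much transcript each cell holds. A summed level cannot tell these apart, so most comparisons below were made again without cells that passed a gate on mitosis genes. Dividing cells that the gate missed remain among the rest.

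The CKO library held 12958 barcodes and 76910129 UMIs (unique molecular identifiers, counted transcript molecules), and the WT library held 13291 barcodes and 84240951 UMIs. Median depth was 4616 UMIs per CKO cell and 5355 UMIs per WT cell, and 36 barcodes occurred in both. After filtering, 12610 CKO and 12679 WT cells remained. Cells were named by gates on raw UMIs of lineage markers, which placed 12002 CKO and 12005 WT cells. Cells with fewer than 2 marker UMIs, or with a best lineage under 3 times the next one, stayed ungated. This was the treatment of doublets, and cells with a few UMIs of another lineage could stay in a class. The largest classes were B cells (9757 CKO and 7512 WT cells), CD4 T cells (297 CKO and 1297 WT), CD8 T cells (111 CKO and 1306 WT) and NK cells (862 CKO and 359 WT). Gate markers were high in their own classes: Cd79a reached 3069 CPM in CKO and 3117 CPM in WT B cells, and Ncr1 reached 972 CPM in CKO and 1061 CPM in WT NK cells. The CD8 class was mixed in the CKO library, where the γδ T cell gene Trdc stood at 142 CPM against 8.05 CPM in WT. A cell was called cycling when it held UMIs of at least 3 of 16 mitosis genes, none of which is a member. Dividing cells with UMIs of fewer mitosis genes, for example at low depth, count as non-cycling here. Median depth of non-cycling cells was 4624.5 UMIs in CKO and 5470.5 UMIs in WT. Levels are UMI counts per 1000000 UMIs (CPM) summed over the cells of a class, and ratios are CKO over WT unless stated. With 1 library per genotype no test was possible. Brackets hold exact 95% intervals that cover counting error only, and differences between animals or preparations cannot be told apart from genotype. A gene counts as past 1.5-fold at a ratio of at least 1.5 or at most 0.667, among genes with at least 20 UMIs over both libraries.

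The targeted gene was read first. Rpa1 stood at 33.1 CPM in CKO and 34.9 CPM in WT B cells, at 34.5 CPM in CKO and 45.7 CPM in WT CD4 T cells, and at 53.6 CPM in CKO and 52.0 CPM in WT NK cells. In non-cycling cells its ratio was 0.759 (0.568 to 0.999) in CD4 T cells and 0.919 (0.856 to 0.987) in B cells. It was 0.683 (0.479 to 0.952) in T cells outside the CD4, CD8, regulatory and γδ gates. The intervals included 1 in CD8 T cells (0.917), regulatory T cells (0.534), NK cells (0.936) and monocytes or macrophages (0.854). In γδ T cells it was 7.32 (1.21 to 300), from 27 CKO UMIs and 1 WT UMI. Rpa1 transcripts were thus present in every large class of the CKO library. Since 3′ tags can lie outside deleted exons that the labels do not name, these counts do not check the label.

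Upstream sequences of a few members are shown because the genes differ widely in how strongly they mark cycling cells. The RefSeq promoter table (GRCm38.p6) held 28 promoters of 24 members; Gins1, Gins2, Gins4, Mcm4, Pole, Rfc2, Tipin and Wee1 had no entry. The E2F-type motif TTTNNCGC, searched on both strands (GCGNNAAA on the other one) over 250 bases before and 50 after each start, occurred in 12 of the 28 (42.9%), against 1698 of 32851 promoters in the whole table (5.17%). CCAAT, searched the same way, occurred in 15 of the 28 (53.6%), against 12289 of 32851 (37.4%). Each line below runs 5′ to 3′ on the gene's strand and ends at or before its start, with E2F-type matches in capitals. Mcm5 lies at chr8:75109309-75109508 (+), Mcm6 at chr1:128359706-128359905 (-) and Pola1 at chrX:93632156-93632355 (-), and they hold 2, 3 and 1 matches; matches overlap on opposite strands in Mcm5 and in Mcm6. Rfc1, at chr5:65335671-65335839 (-), and Rrm2, at chr12:24708054-24708240 (+), hold no such letters in these windows.
Mcm5: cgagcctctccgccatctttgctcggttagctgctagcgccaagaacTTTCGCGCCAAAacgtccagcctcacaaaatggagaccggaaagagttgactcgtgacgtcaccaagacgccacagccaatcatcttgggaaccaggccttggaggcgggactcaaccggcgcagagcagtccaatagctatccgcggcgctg
Mcm6: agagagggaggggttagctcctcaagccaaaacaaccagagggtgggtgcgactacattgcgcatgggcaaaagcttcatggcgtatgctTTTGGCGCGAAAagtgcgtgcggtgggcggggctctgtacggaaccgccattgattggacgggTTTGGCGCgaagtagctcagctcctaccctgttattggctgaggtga
Pola1: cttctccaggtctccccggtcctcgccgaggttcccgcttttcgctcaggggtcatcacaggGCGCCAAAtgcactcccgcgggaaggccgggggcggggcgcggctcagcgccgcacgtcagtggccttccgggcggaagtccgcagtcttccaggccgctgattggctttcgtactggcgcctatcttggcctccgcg
Rfc1: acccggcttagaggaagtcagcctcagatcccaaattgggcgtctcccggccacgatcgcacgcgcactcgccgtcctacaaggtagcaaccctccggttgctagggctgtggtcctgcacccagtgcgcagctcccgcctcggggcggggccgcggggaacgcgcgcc
Rrm2: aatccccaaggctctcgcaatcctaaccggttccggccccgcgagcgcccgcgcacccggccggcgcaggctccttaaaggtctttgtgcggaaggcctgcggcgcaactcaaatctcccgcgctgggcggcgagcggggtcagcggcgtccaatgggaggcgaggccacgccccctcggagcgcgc
Rfc1 and Rrm2 stood at opposite ends of the contrast between cycling and non-cycling cells given below, and neither window has a match. Over the 12 members with a match, the median cycling over non-cycling ratio in B lineage cells was 7.28 in CKO and 7.16 in WT. Over the 12 matched members without one it was 6.75 in CKO and 6.34 in WT. A match is a description of letters, not of a site that is bound.

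Replication transcripts were present in every lymphocyte class outside the cycling gate and were several-fold more abundant inside it. Non-cycling B cells held 773 CPM (766 to 781) of summed members in CKO and 748 CPM (740 to 756) in WT. Non-cycling NK cells held 756 CPM (729 to 785) in CKO and 768 CPM (728 to 811) in WT, and non-cycling CD4 T cells 628 CPM (591 to 665) in CKO and 571 CPM (555 to 587) in WT. Among the classes drawn, non-cycling neutrophils were lowest, at 170 CPM (141 to 203) in CKO and 234 CPM (200 to 272) in WT. No Rrm2 UMI occurred in the non-cycling CKO neutrophils and 1 in those of WT, although Rfc1 kept 44 UMIs in CKO and 54 in WT. Part of a low level can be free RNA, whose share in the lymphocyte levels was not tested. Cycling B lineage cells held 3831 CPM (3755 to 3908) in CKO and 3971 CPM (3877 to 4068) in WT. Cycling monocytes or macrophages reached 3621 CPM (3466 to 3780) in CKO and 3463 CPM (3300 to 3633) in WT. Of all member UMIs in the filtered cells, 25.8% in CKO and 21.5% in WT came from cycling cells, which made up 2.14% of CKO and 1.65% of WT cells.

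**Figure D1:**
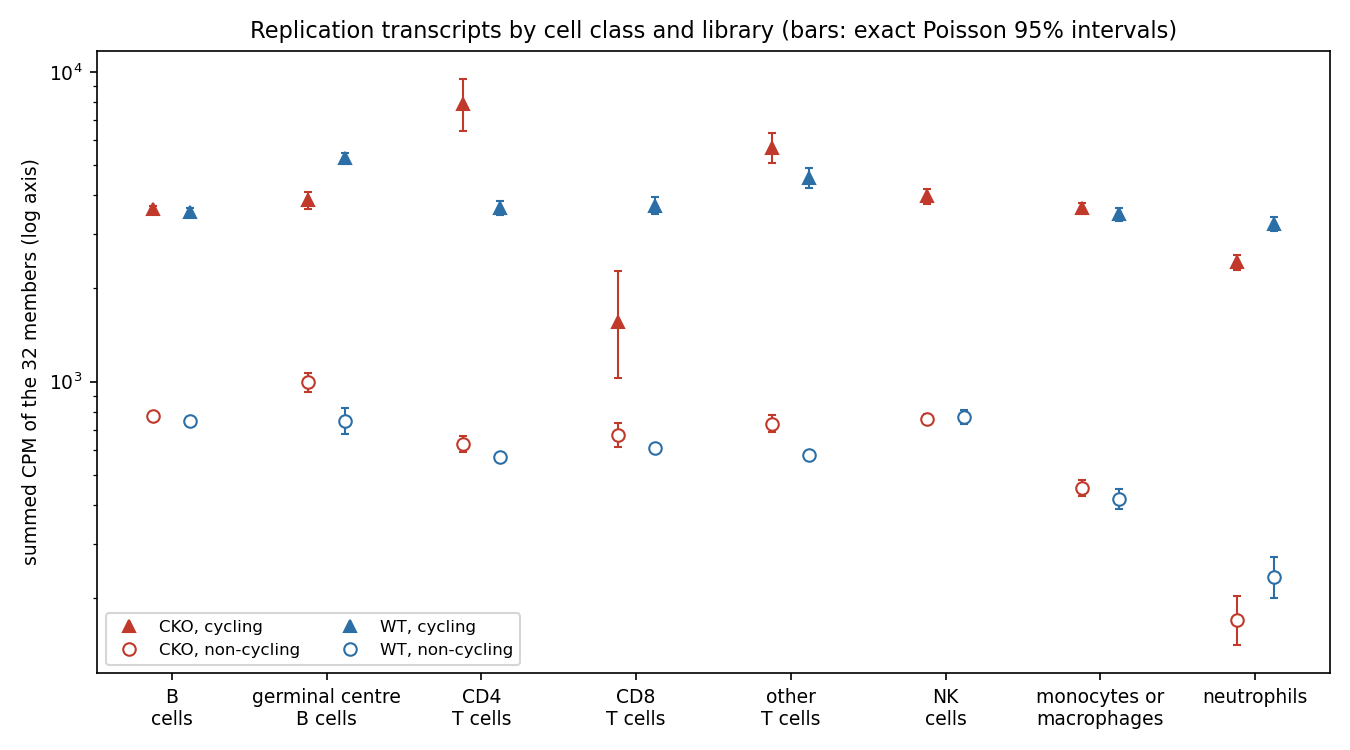
Summed CPM of the 32 members (log axis) in cycling cells (filled triangles) and non-cycling cells (open circles) of 8 gated classes, CKO in red and WT in blue, with exact Poisson 95% intervals. Every cycling point lies above the non-cycling point of its class and library, and non-cycling neutrophils are lowest at 170 CPM in CKO and 234 CPM in WT; the CKO points of cycling CD4 and CD8 T cells rest on 1 and 2 cells.

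Within B lineage cells (B cells, germinal centre cells, precursors and plasma cells), cycling over non-cycling cells had a summed member ratio of 4.96 (4.85 to 5.07) in CKO, from 150 cycling cells, and 5.37 (5.23 to 5.52) in WT, from 91. Of the 32 members, 30 were at least 1.5-fold higher in cycling cells in each library, where 17.5% of all genes tested were in CKO and 18.5% in WT. Cycling cells were chosen by mitosis genes, so a rise of replication genes in them is a description of the gate. What the members show is how unequal that contrast was.

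The 6 MCM genes lay close together, between 4.70 (Mcm4) and 8.35 (Mcm5) in CKO and between 5.16 (Mcm2) and 11.3 (Mcm6) in WT. The licensing pair split: Cdc6 was 68.9-fold higher in CKO cycling cells (43.5 to 113) and 146-fold in WT (84.0 to 273), while Cdt1 was 1.70-fold higher in CKO and 1.51-fold in WT. Cdt1 loads MCM together with Cdc6 and is known to be destroyed as protein during S phase. Cdc45, which joins the loaded helicase, had ratios of 25.5 (18.8 to 34.8) in CKO and 43.0 (30.1 to 62.1) in WT. The 4 GINS genes encode 1 tetramer, yet ran from Gins1 (13.6 in CKO, 15.1 in WT) through Gins2 (7.42 in CKO, 8.68 in WT) and Gins3 (4.21 in CKO, 3.0 in WT) down to Gins4 (1.96 in CKO, 1.66 in WT). Gins4 also had far more UMIs in non-cycling B lineage cells than its partners, with 1408 in CKO and 1048 in WT against 64 in CKO and 59 in WT for Gins1.

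The clamp loader was just as uneven. Rfc1, its large subunit, stood at 165 CPM in cycling and 146 CPM in non-cycling CKO cells and at 177 CPM in cycling and 135 CPM in non-cycling WT cells, ratios of 1.13 (1.02 to 1.24) in CKO and 1.31 (1.16 to 1.48) in WT. Rfc2 followed at 2.14 in CKO and 2.05 in WT and Rfc3 at 2.94 in CKO and 3.43 in WT, while Rfc5 reached 5.37 in CKO and 5.86 in WT and Rfc4 7.68 in CKO and 8.13 in WT. Pcna, the clamp, had ratios of 5.99 in CKO and 6.08 in WT. Among the polymerases, the catalytic subunit of polymerase delta, Pold1, was nearly level (1.34 in CKO, 1.41 in WT), whereas that of polymerase epsilon, Pole, reached 17.9 in CKO and 12.8 in WT. Pola1, the catalytic subunit of polymerase alpha, and Prim1, the small primase subunit, lay between, at 7.29 and 8.86 in CKO and at 6.53 and 9.29 in WT.

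Lig1, the ligase that seals Okazaki fragments, had ratios of 14.6 in CKO and 13.6 in WT, and Fen1, the flap nuclease that trims them, 4.43 in CKO and 4.33 in WT. Nucleotide supply held the steepest gene: Rrm2, the regulated small subunit of ribonucleotide reductase, stood at 213 CPM in cycling and 1.17 CPM in non-cycling CKO cells, and at 198 CPM in cycling and 1.31 CPM in non-cycling WT cells. Its ratio was 183 (141 to 241) in CKO and 151 (114 to 205) in WT, against 7.01 in CKO and 6.60 in WT for its partner subunit Rrm1. Tyms, thymidylate synthase, followed at 37.1 in CKO and 34.7 in WT, and Dut, which removes dUTP, stood at 8.10 in CKO and 9.63 in WT. The fork protection partners Timeless (6.49 in CKO, 5.88 in WT) and Tipin (4.88 in CKO, 6.51 in WT) and the Cdk1 inhibitory kinase Wee1 (5.86 in CKO, 5.42 in WT) were close to the MCM genes. For 3 of the 32 members, Mcm6, Dut and Tipin, the intervals of the libraries did not overlap, and all 3 had the smaller contrast in CKO. The share of all genes whose intervals part in this way was not computed, so this count does not set the members apart.

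**Figure D2:**
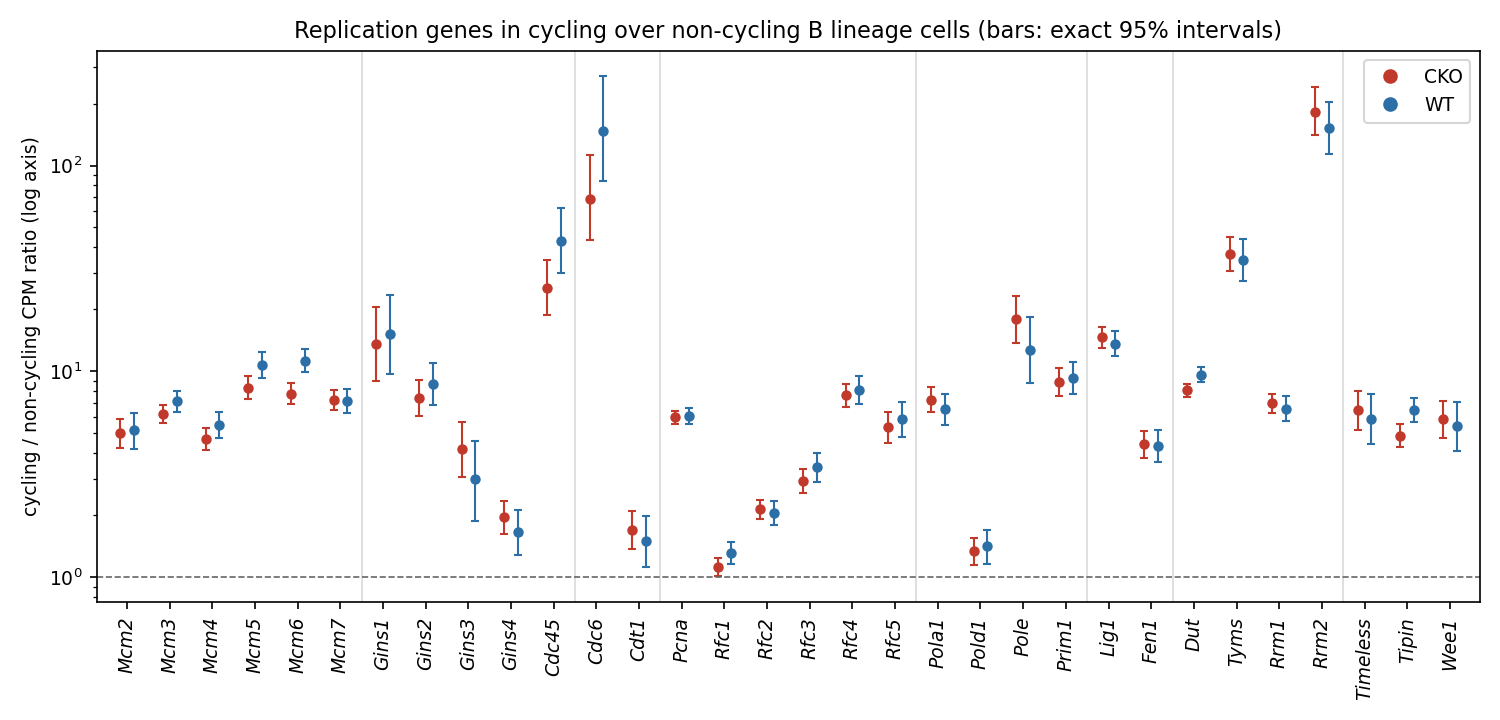
Ratio of CPM in cycling over non-cycling B lineage cells (log axis) for the 32 members ordered by role, CKO in red and WT in blue, with exact 95% intervals and a dashed line at equality. Rfc1, Pold1, Cdt1, Gins4 and Rfc2 lie nearest the line in both libraries, and Cdc6 and Rrm2 lie farthest above it.

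The share of cycling cells was higher in the CKO library. After cells were thinned to 1000 UMIs, so that depth was equal, and 29 CKO and 52 WT cells with fewer were left out, 129 of 11973 CKO cells (1.08%, 0.9 to 1.28) and 81 of 11953 WT cells (0.678%, 0.539 to 0.842) passed the gate, a ratio of 1.59 (1.19 to 2.13). Without thinning the shares were 2.03% in CKO and 1.53% in WT. With 5 mitosis genes required, the thinned ratio was 1.36 (0.929 to 1.997), an interval that includes 1. In B cells the thinned shares were 0.657% in CKO and 0.281% in WT, a ratio of 2.34 (1.41 to 4.03). The members themselves gave the same direction. Thinned cells with at least 5 member UMIs numbered 121 of 11973 in CKO (1.01%) and 81 of 11953 in WT (0.678%), a ratio of 1.49 (1.12 to 2.0). Of these, 44 in CKO and 19 in WT were outside the cycling gate when it was read at full depth, without thinning.

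Summed over all gated cells, members stood at 932 CPM (925 to 939) in CKO and 818 CPM (812 to 825) in WT, a ratio of 1.14 (1.13 to 1.15). Over all non-cycling gated cells the ratio was 1.104. Among non-cycling classes it was 1.03 in B cells, 0.984 in NK cells, 1.13 in all T cells and 1.27 (1.18 to 1.36) in T cells outside the CD4, CD8, regulatory and γδ gates. The libraries also differ in make-up, since the CKO library holds more B cells and only 746 T cells against 3635 in WT, and non-cycling T cells sat lower (666 CPM in CKO, 589 CPM in WT) than non-cycling B cells.

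In non-cycling B cells the machinery was close to level between libraries, with a summed ratio of 1.03 (1.02 to 1.05) from 9634 CKO and 7452 WT cells. None of the 32 members was past 1.5-fold in either direction, where 3.82% of all genes tested were higher and 3.34% lower. Member ratios ran from 0.788 for Gins1 to 1.16 for Cdc6. The members with the most UMIs were Rfc1 at 147 CPM (144 to 151) in CKO and 137 CPM (133 to 140) in WT, Rfc2 at 66.9 CPM in CKO and 70.9 CPM in WT, and Pcna at 65.0 CPM in CKO and 63.0 CPM in WT. The MCM genes lay between 0.997 and 1.13, the clamp and its loader between 0.921 and 1.08, and nucleotide supply between 0.844 and 1.07. Small differences had intervals clear of 1, among them Mcm3 (32.5 CPM in CKO, 28.8 CPM in WT, ratio 1.13, 1.04 to 1.21) and, in the other direction, Lig1 (12.0 CPM in CKO, 14.1 CPM in WT, ratio 0.846, 0.755 to 0.948). With cycling cells included, Rrm2 stood at 8.11 CPM in CKO and 5.09 CPM in WT (ratio 1.59, 1.35 to 1.88). Cycling cells were 123 of 9757 CKO and 60 of 7512 WT B cells.

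Inside the cycling B lineage cells, 1 of 32 members was past 1.5-fold higher and 1 lower, where 11.6% and 6.06% of all genes were. Pole stood at 41.8 CPM (34.2 to 50.5) in CKO and 27.5 CPM (20.1 to 36.7) in WT, a ratio of 1.52 (1.07 to 2.20), and between 1.428 and 1.478 with no cell filter, the stricter gate, cells with high doublet scores removed, the other denominator or 5 mitosis genes. Cdc6 stood at 31.9 CPM (25.3 to 39.7) in CKO and 51.4 CPM (41.1 to 63.4) in WT, a ratio of 0.621 (0.453 to 0.851). With a stricter cell filter, of 300 to 5000 genes and under 5% mitochondrial UMIs, the Cdc6 ratio was 0.979. Smaller differences with intervals clear of 1 were Mcm6 (165 CPM in CKO, 210 CPM in WT, ratio 0.783, 0.678 to 0.905), Tipin (116 CPM in CKO, 155 CPM in WT, ratio 0.751, 0.633 to 0.891) and Cdc45 (37.8 CPM in CKO, 51.4 CPM in WT, ratio 0.736, 0.544 to 0.996). With cycling called from 2 mitosis genes the intervals of Mcm6 (0.938, 0.822 to 1.07) and Tipin (0.907, 0.776 to 1.06) included 1. The members with the most UMIs over both libraries were Dut at 418 CPM in CKO and 458 CPM in WT, Pcna at 390 CPM in CKO and 381 CPM in WT, and Rrm2 at 213 CPM in CKO and 198 CPM in WT. The summed ratio of 0.965 (0.935 to 0.995) changed side under several settings. Cycling cells were not the same mixture: 14 of 150 in CKO and 25 of 91 in WT were germinal centre cells.

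Germinal centre B cells, the dividing B cells of an immune response, held fewer replication transcripts in CKO. Gated by markers that include Mef2b, S1pr2 and Rgs13, they numbered 117 in CKO and 101 in WT, and held 1679 CPM (1602 to 1759) of members in CKO and 2805 CPM (2705 to 2907) in WT, a ratio of 0.599 (0.564 to 0.635). Of 31 members tested, none was past 1.5-fold higher and 20 were lower, where 10.9% of all genes were higher and 10.2% lower. For 18 of the 20 the interval was clear of 1. Rrm2 was farthest down, at 25.4 CPM (16.7 to 36.9) in CKO and 136 CPM (115 to 160) in WT, a ratio of 0.187 (0.119 to 0.283). Cdc6 (0.246), Cdc45 (0.355), Lig1 (0.445), Tyms (0.454), Tipin (0.467), Dut (0.477) and Prim1 (0.497) followed.

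In those germinal centre cells, 4 of the 6 MCM genes were lower past 1.5-fold (Mcm4 at 0.577, Mcm7 at 0.621, Mcm5 at 0.631 and Mcm6 at 0.652), with Mcm3 at 0.709 and Mcm2 at 0.898. Of the clamp loader, Rfc4 (0.570), Rfc5 (0.572) and Rfc3 (0.582) were lower past 1.5-fold, with Rfc1 at 0.692 and Rfc2 at 0.740. Rrm1 (0.603), Pola1 (0.640) and Fen1 (0.650) were lower as well, as were Gins2 (0.568) and Pole (0.617) with intervals that include 1. By UMIs of both libraries together, Dut was the most abundant member here, at 174 CPM in CKO and 365 CPM in WT, before Pcna at 180 CPM in CKO and 231 CPM in WT and Rfc1 at 160 CPM in CKO and 231 CPM in WT. Without thinning, cycling cells were 14 of 117 in CKO (12.0%, 6.70 to 19.3) and 25 of 101 in WT (24.8%, 16.7 to 34.3). Thinned to 1000 UMIs they were 8 of 117 in CKO and 13 of 101 in WT. That ratio was 0.531 (0.191 to 1.38), an interval that includes 1. Within the cycling germinal centre cells the summed ratio was 0.732 (0.680 to 0.789), and within the others it was 1.33 (1.19 to 1.5), with 994 CPM in CKO and 746 CPM in WT. These cells are few: 1 cell alone held 8.62% of the members' UMIs in CKO and 9.85% in WT. Over all germinal centre cells the sum was 0.764 (0.608 to 0.960) thinned to 1000 UMIs and 0.730 with equal weight per cell, Dut was at 0.863 (0.381 to 1.95) thinned, and Cdc6 was at 0.422 with the stricter cell filter.

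NK cells held more replication transcripts in CKO, in a small group of cycling cells. Over all 862 CKO and 359 WT NK cells, members stood at 1019 CPM (988 to 1050) in CKO and 768 CPM (728 to 811) in WT, a ratio of 1.33 (1.25 to 1.41). Of 29 members tested, 11 were past 1.5-fold higher and none lower, where 7.07% of all genes were higher and 4.56% lower. The median log2 ratio was 0.43 over the members and 0.00 over all genes. Of the 11, 9 had intervals clear of 1, and all 4 nucleotide supply genes were among them. Rrm2 stood at 24.8 CPM (20.2 to 30.1) in CKO and 3.51 CPM (1.29 to 7.63) in WT (ratio 7.08, 3.14 to 19.7), and Tyms at 25.5 CPM (20.9 to 31.0) in CKO and 8.77 CPM (4.91 to 14.5) in WT (ratio 2.91, 1.69 to 5.39). Dut had a ratio of 1.75 (1.31 to 2.37) and Rrm1 of 1.61 (1.15 to 2.31).

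The MCM genes were uneven in NK cells: Mcm5 (31.4 CPM in CKO, 16.4 CPM in WT, ratio 1.92) and Mcm7 (37.6 CPM in CKO, 22.2 CPM in WT, ratio 1.69) were past 1.5-fold, while Mcm6 (1.28), Mcm2 (1.06), Mcm3 (1.04) and Mcm4 (0.964) had intervals that include 1. Of the clamp loader, Rfc4 had a ratio of 1.91 (1.22 to 3.11), and Rfc3 (1.37), Rfc5 (1.27), Rfc1 (0.973) and Rfc2 (0.959) had intervals that include 1. Pola1 (1.83, 1.21 to 2.87) and its partner Prim1 (1.70, 1.07 to 2.81) completed the named genes. Of the GINS genes, Gins3 had a ratio of 2.0 (0.918 to 4.95), Gins4 of 1.27 and Gins2 of 1.18, and Gins1 was under the minimum. Pcna, the member with the most UMIs over both libraries, stood at 116 CPM in CKO and 83.6 CPM in WT (ratio 1.39, 1.15 to 1.69), before Rfc2 at 85.7 CPM in CKO and 89.4 CPM in WT and Rfc1 at 70.5 CPM in CKO and 72.5 CPM in WT. Cdc6 had 14 UMIs in CKO and 0 in WT.

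Cycling NK cells were 23 of 862 in CKO (2.67%, 1.70 to 3.98) and 0 of 359 in WT; taking 3 counts as the limit that a count of 0 allows, the WT share is up to 0.836%. They carried 31.8% of the member UMIs of CKO NK cells, from 9.15% for Gins4 to 85.7% for Cdc6 and 84.2% for Rrm2. Their own level was 3962 CPM (3751 to 4181), near that of cycling B lineage cells, with a median of 71 member UMIs per cell (range 1 to 146). Their median NK marker count was 28 UMIs, against 1 for B and 0 for T markers, and their median depth of 15427 UMIs stood against 4095 in non-cycling CKO NK cells. Without them the summed ratio was 0.984 (0.922 to 1.05). In these non-cycling NK cells 0 of 29 members were past 1.5-fold higher and 1 was lower (Pole, 12 UMIs in CKO and 9 in WT), where 5.24% and 4.45% of all genes were. Rrm2 then stood at 4.28 CPM in CKO and 3.51 CPM in WT, and Tyms at 8.29 CPM in CKO and 8.77 CPM in WT. Mki67, a mitosis gene of the gate, had 538 UMIs in CKO and 23 in WT NK cells. With every NK cell weighted equally the ratio over all NK cells was 1.08, with Rrm2 at 3.02, Tyms at 1.54, Mcm5 at 1.28 and Dut at 1.15. Thinned to 1000 UMIs, Tyms was at 1.14 and Dut at 1.05, and with the stricter gate Dut was at 1.44 and the Rfc4 interval (0.969 to 2.93) included 1.

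**Figure D3:**
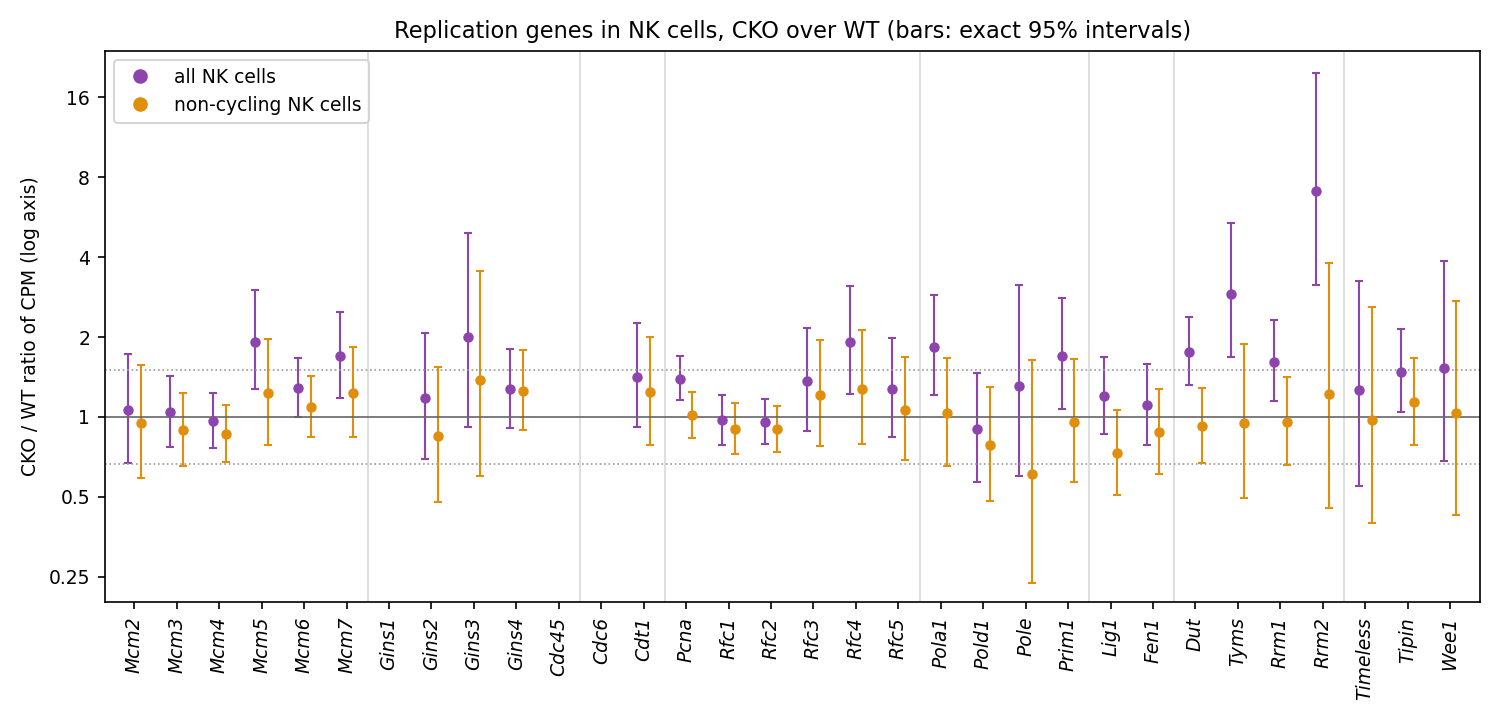
CKO over WT ratio of CPM (log axis) for each member with at least 20 UMIs in all NK cells (purple) and in non-cycling NK cells (orange), with exact 95% intervals and dotted lines at 1.5-fold. The purple points of Rrm2 (7.08) and Tyms (2.91) stand highest, and every orange point lies below the upper dotted line.

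In CD4 T cells the partners of the fork protection complex lay on opposite sides. Timeless, which with Tipin stabilises stalled forks and helps activate the checkpoint, stood in non-cycling cells at 22.5 CPM (16 to 30.6) in CKO and 12.3 CPM (10.1 to 14.9) in WT, from 40 CKO and 105 WT UMIs, a ratio of 1.83 (1.24 to 2.65). Tipin stood at 14.6 CPM (9.53 to 21.4) in CKO and 24.2 CPM (21.0 to 27.8) in WT, from 26 CKO and 207 WT UMIs, a ratio of 0.602 (0.384 to 0.908). These were the 2 members past 1.5-fold with intervals clear of 1 among 296 CKO and 1279 WT cells. In all, 1 of 27 members tested was past 1.5-fold higher and 4 lower, near the background of 5.67% of all genes higher and 9.18% lower. The number of calls thus does not set the members apart from other genes. The summed ratio was 1.1 (1.03 to 1.17).

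The other 3 lower members were Tyms (0.406), Wee1 (0.436) and Fen1 (0.665), from 5, 2 and 14 CKO UMIs, with intervals that include 1. Mcm7 (34.2 CPM in CKO, 24 CPM in WT, ratio 1.43, 1.05 to 1.91) and Mcm4 (51.1 CPM in CKO, 36.8 CPM in WT, ratio 1.39, 1.09 to 1.76) had intervals clear of 1, Mcm2, Mcm3 and Mcm6 had ratios of 1.33, 1.27 and 1.22, and Mcm5 stood at 0.679 (0.375 to 1.15). The members with the most UMIs over both libraries were Pcna at 80.3 CPM in CKO and 76.1 CPM in WT, Rfc1 at 82.5 CPM in CKO and 68.2 CPM in WT, and Dut at 59.5 CPM in CKO and 53.0 CPM in WT. The loader subunits Rfc2 (0.864), Rfc3 (0.992), Rfc4 (1.01) and Rfc5 (1.16), and Gins2 (0.940), Gins3 (1.14) and Gins4 (0.983), all had intervals that include 1. The Timeless and Tipin values were also read in CD4 cells gated as naive, a subset added after seeing the data. There, with 204 CKO and 843 WT cells, Timeless had a ratio of 2.08 (1.34 to 3.19) and Tipin of 0.584 (0.309 to 1.02). Thinned to 1000 UMIs, few Timeless UMIs were left and its ratio was 0.909 (0.225 to 2.74).

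Outside T cells the Timeless ratios were close to 1, with a wide interval in NK cells. In non-cycling B cells Timeless stood at 6.70 CPM in CKO and 6.74 CPM in WT (ratio 0.994, 0.847 to 1.17), and in NK cells its ratio was 0.973 (0.398 to 2.60). T cells outside the CD4, CD8, regulatory and γδ gates (other T cells) gave 1.75 (1.12 to 2.69) and CD8 T cells 1.45 (0.748 to 2.57). The γδ gene Trdc stood at 260 CPM in CKO and 22.9 CPM in WT other T cells, and its part in these ratios was not tested. The small T classes lay on the other side of 1, with wide intervals. Timeless had a ratio of 0.543 (0.0778 to 6.0) in γδ T cells, from 4 CKO and 2 WT UMIs. Regulatory T cells held 0 Timeless UMIs in CKO and 7 in WT (ratio 0, 0 to 3.71). Tipin had ratios of 0.985 in B cells, 0.949 in CD8 T cells, 0.916 in other T cells, 1.13 in NK cells, 0.551 (0.296 to 1.01) in monocytes or macrophages and 0.543 (0.188 to 1.76) in γδ T cells, all with intervals that include 1. Whether the T cell values differ from those of B cells was not tested.

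**Figure D4:**
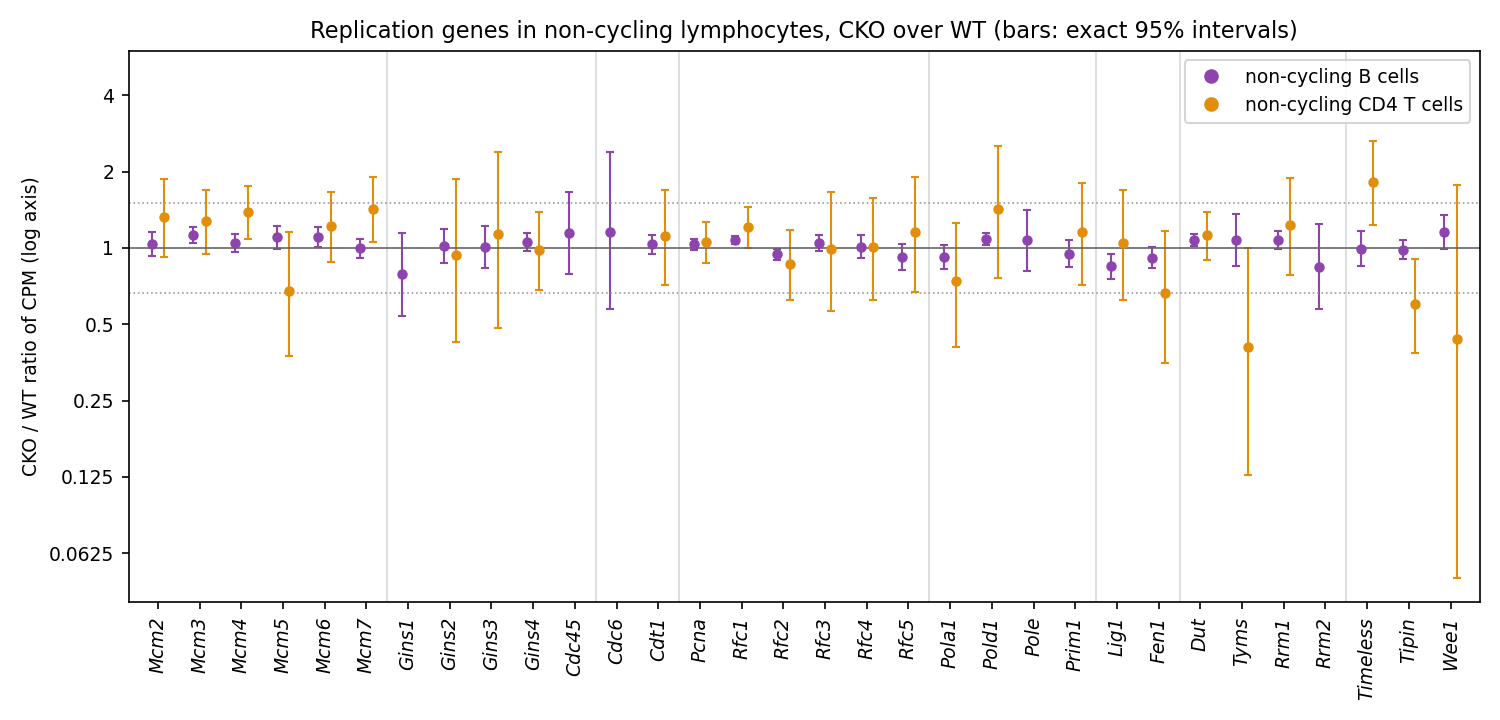
CKO over WT ratio of CPM (log axis) for each member with at least 20 UMIs in non-cycling B cells (purple) and non-cycling CD4 T cells (orange), with exact 95% intervals and dotted lines at 1.5-fold. All B cell points lie between the dotted lines; Timeless (1.83) lies above and Tipin (0.602) below them in CD4 T cells.

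**Figure D5:**
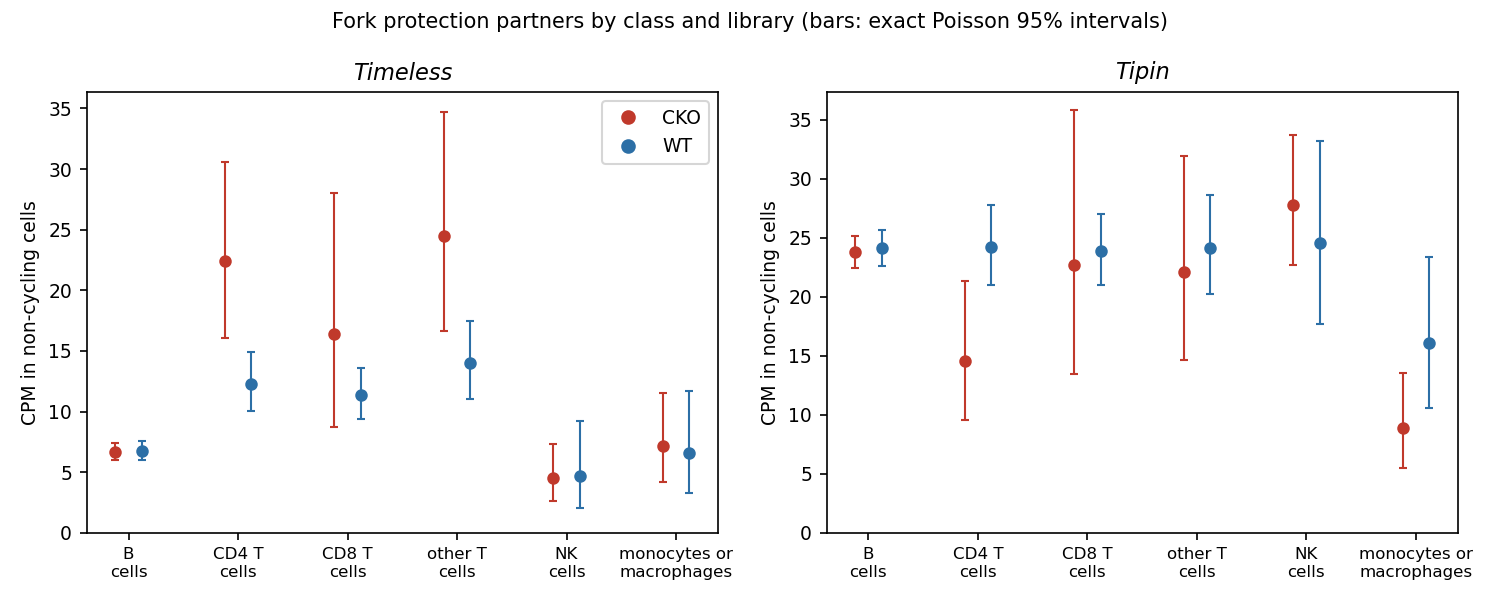
Timeless and Tipin in CPM in the non-cycling cells of 6 classes, CKO in red and WT in blue, with exact Poisson 95% intervals. The CKO point of Timeless in CD4 T cells (22.5 CPM) lies above the WT point (12.3 CPM), and the order is turned round for Tipin (14.6 CPM in CKO, 24.2 CPM in WT).

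Over all CD4 T cells, cycling ones included, Fen1 and the S phase enzymes Tyms and Rrm2 were lower in CKO. Of 30 members tested, 1 was past 1.5-fold higher and 6 lower, where 6.01% of all genes were higher and 9.87% lower. Tyms stood at 5.01 CPM (2.29 to 9.52) in CKO and 16.4 CPM (13.9 to 19.3) in WT (ratio 0.305, 0.137 to 0.595). Rrm2 stood at 5.01 CPM in CKO and 14.8 CPM in WT (ratio 0.339, 0.152 to 0.664), and Fen1 at 8.35 CPM in CKO and 15.6 CPM in WT (ratio 0.537, 0.293 to 0.917). Timeless (1.76) and Tipin (0.610) were the other named genes. Cycling CD4 T cells numbered 1 of 297 in CKO (0.337%) and 18 of 1297 in WT (1.39%). The ratio of these shares was 0.243 (0.00582 to 1.54), an interval that includes 1. A single CKO cell held 88.9% of the Rrm2 UMIs of its class, and without the cell with most member UMIs in each library the Rrm2 ratio was 0.0430. In the naive-gated subset the ratios were 0.616 (0.189 to 1.57) for Tyms, 0.759 (0.0165 to 6.26) for Rrm2 and 0.822 (0.390 to 1.58) for Fen1, with intervals that include 1. Thinned to 1000 UMIs, the intervals over all CD4 T cells included 1 as well. The thinned ratios were 0.364 (0.00851 to 2.46) for Tyms, 0.485 (0.0111 to 3.50) for Rrm2 and 0.727 (0.0791 to 3.27) for Fen1.

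CD8 T cells had 2 named members, both on the higher side. In non-cycling cells Prim1, the small primase subunit, stood at 27.7 CPM (17.4 to 42.0) in CKO and 10.2 CPM (8.33 to 12.3) in WT (ratio 2.72, 1.64 to 4.34), and Gins4 at 39.1 CPM (26.5 to 55.5) in CKO and 23.0 CPM (20.2 to 26.1) in WT (ratio 1.70, 1.13 to 2.47). Of 29 members tested, 6 were past 1.5-fold higher and 2 lower, near the background of 12.1% higher and 12.4% lower. Pcna stood at 75.6 CPM in CKO and 77.4 CPM in WT, Rfc1 at 52.9 CPM in CKO and 75.5 CPM in WT (ratio 0.701, 0.501 to 0.956), and Dut at 49.1 CPM in CKO and 51.5 CPM in WT. The summed ratio was 1.1 (1.01 to 1.2). Without cells holding a Trdc UMI, 83 CKO and 1254 WT cells remained, and the ratios were 1.84 (0.889 to 3.42) for Prim1, 1.57 (0.955 to 2.46) for Gins4 and 1.005 (0.9 to 1.12) for the sum.

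Pooling all T classes gave 738 CKO and 3587 WT non-cycling cells and a summed ratio of 1.13 (1.09 to 1.18). Of 29 members tested, 3 were past 1.5-fold higher and none lower, where 6.74% of all genes were higher and 6.41% lower. Lig1 stood at 17.0 CPM (13.4 to 21.2) in CKO and 10.2 CPM (9.02 to 11.5) in WT (ratio 1.66, 1.27 to 2.15), Timeless at 19.2 CPM (15.4 to 23.6) in CKO and 12.1 CPM (10.8 to 13.5) in WT (ratio 1.58, 1.23 to 2.01), and Prim1 at 16.8 CPM in CKO and 10.8 CPM in WT (ratio 1.56, 1.19 to 2.01). None of the 6 MCM genes was past 1.5-fold, with Mcm7 at 1.40 (1.17 to 1.67), Mcm3 at 1.33, Mcm2 at 1.30, Mcm4 at 1.27, Mcm6 at 1.11 and Mcm5 at 1.04. Tipin stood at 0.796 (0.629 to 0.996). With cells called cycling from 2 mitosis genes, Lig1 (1.376), Timeless (1.443) and Prim1 (1.444) were under 1.5-fold and the sum was 1.064, and without the cell richest in members in each library Prim1 was at 1.495. The T classes had different proportions in the libraries, so this pool is also a different mixture.

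A list of 59 other replication genes was read in the same way. In all NK cells 25 of 51 tested were past 1.5-fold higher and 1 lower, where 7.07% of all genes were higher and 4.56% lower. Top2a, which untangles sister chromatids and belongs to the mitosis gate, had 559 UMIs in CKO and 38 in WT. The checkpoint mediator Clspn stood at 21.6 CPM in CKO and 3.51 CPM in WT (ratio 6.17, 2.72 to 17.3), the thymidine kinase Tk1 at 11.5 CPM in CKO and 2.34 CPM in WT, and the licensing inhibitor Gmnn at 35.1 CPM in CKO and 16.9 CPM in WT (ratio 2.07, 1.38 to 3.21). E2f8, a repressor of E2F targets, had 44 UMIs in CKO and 0 in WT. Rnaseh2a, the catalytic subunit of RNase H2, was the gene lower, at 18.7 CPM in CKO and 29.8 CPM in WT (ratio 0.626, 0.434 to 0.912), and it was so in non-cycling NK cells too (0.575, 0.391 to 0.847). In non-cycling CD4 T cells, Dck, the kinase that salvages deoxycytidine, stood at 39.3 CPM in CKO and 24.3 CPM in WT (ratio 1.61, 1.21 to 2.13), and Atad5, which unloads PCNA, had a ratio of 1.68 (1.03 to 2.67). In cycling B lineage cells Top1 stood at 344 CPM in CKO and 569 CPM in WT (ratio 0.604, 0.550 to 0.663), Ung at a ratio of 0.594 and E2f2 at 1.53.

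Further genes of that list were past 1.5-fold with an interval clear of 1. In all NK cells Top2a (6.18), Tk1 (4.94), Uhrf1 (3.05), E2f2 (2.65), Chaf1a (2.47), Atad5 (2.44), Ccne1 (2.10), Asf1b (1.85), Hells (1.74), Rnaseh2b (1.59) and Orc6 (1.57) were higher, as was Dscc1, with 1 WT UMI and a ratio of 10.1 (1.65 to 414.9). They span maintenance methylation (Uhrf1), chromatin assembly (Chaf1a, Asf1b), origin recognition (Orc6) and the start of S phase (Ccne1, E2f2). Non-cycling CD4 T cells had 2 of 46 listed genes past 1.5-fold higher and 3 lower, near the background of 5.67% higher and 9.18% lower. Top2a was among the lower, at 0.138 (0.0281 to 0.416). It is a gene of the mitosis gate, so the rule that chose these cells also limits its level in them. With cycling CD4 T cells included, Top2a had a ratio of 0.350, Tk1 of 0.116, from 1 CKO UMI, and Dck of 1.55. Non-cycling T cells as a pool had Dck at 1.54 and Chaf1a at 3.02, and non-cycling CD8 T cells had Dbf4 at 1.51 and E2f2 at 2.50. In germinal centre B cells 30 of 53 listed genes were past 1.5-fold lower and 1 higher, where 10.2% of all genes were lower and 10.9% higher, and 24 of the lower ones had intervals clear of 1.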

How the data were processed

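Both samples are single libraries of spleen immune cells. The authors deposited raw, unnormalized UMI counts for each gene in each barcode. Cell Ranger 6.0.2 stands in the matrix headers, whereas 5.0.0 is the version in the submitters' processing notes, which also list Seurat 4.0.3 and the mm10 build. No deposited annotation of cells was used, so all class names were rebuilt and a difference from the study may come from that. Cells with 200 to 6000 genes and under 10% mitochondrial UMIs were kept.

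A lineage was assigned from at least 2 marker UMIs and 3 times those of any other lineage. CPM values carry exact Poisson, shares exact Clopper-Pearson and ratios exact conditional binomial 95% intervals. Only the ratio intervals were checked, on counts simulated as independent Poisson draws. That check does not cover UMIs gathered in a few cells. Medians of log2 ratios used a pseudocount of 1 CPM. Software was scanpy 1.11.5, anndata 0.12.19, matplotlib 3.10.9, scipy 1.17.1, numpy 2.4.6 and pandas 2.3.3 under Python 3.11.15.

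The members, lists and tests were chosen with earlier results of these data known. Named in a class were members with at least 20 UMIs, past 1.5-fold and with an interval clear of 1, the 3 members with most UMIs, and the subunits of MCM, GINS and RFC side by side. Other replication genes were named by the same size rule, except in germinal centre B cells, where counts are given; a few names are not reported here. Alternatives were other cell filters and gates, removal of cells with high Scrublet scores, thinning to 1000 UMIs, equal weight per cell, a denominator without mitochondrial, ribosomal, immunoglobulin and haemoglobin genes, and a naive CD4 gate chosen after seeing the data. The total depths of 76910129 and 84240951 UMIs limit classes with few cells most.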

Additional observations from a re-analysis of the deposited data

Results flagged for a closer look

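Cells that no lineage gate took, which entered no comparison, also held more replication transcripts in the CKO library. Their members stood at 1056 CPM (1030 to 1084) in 608 CKO cells and 840 CPM (817 to 862) in 674 WT cells, a ratio of 1.26 (1.21 to 1.31). They were picked out because they lie outside the classes compared. Cycling cells were 4.28% of them in CKO and 3.71% in WT, and outside the cycling gate they held 791 CPM in CKO and 707 CPM in WT. Their median depths of 8746 UMIs in CKO and 9794 UMIs in WT were above those of the gated cells, and the part of doublets in them was not tested.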

How the results depend on the processing

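No paired analysis was possible because each genotype has 1 library; for the same reason no library could be left out. Of 137 comparisons of the sums, shares, medians and counts with an alternative, 105 stayed within the counting interval or within 1.5 times the count, 28 moved and 4 reversed; among single genes and further sums 245 of 278 stayed, 30 moved and 3 reversed. Reversals concerned cycling B lineage cells (0.965), at 1.05 with the stricter filter, 1.003 with equal weight per cell, 1.01 thinned and 1.096 from 2 mitosis genes; it moved to 0.914 without cells with high doublet scores and 0.927 from 5 mitosis genes. Thinned, Timeless reversed to 0.909 in non-cycling CD4 T cells and 0.857 in non-cycling T cells, and Tipin to 1.13 in cycling B lineage cells. With equal weight per cell the ratio was 1.11 in all gated cells, 1.04 in B, 1.09 in CD4 T and 1.08 in NK cells and 1.15 in monocytes or macrophages; thinned it was 1.11 in all gated cells, 1.05 in CD4 T, 1.22 in CD8 T and 1.101 in NK cells. In all gated cells it was 1.17 without high doublet scores and 1.09 without mitochondrial, ribosomal, immunoglobulin and haemoglobin genes in the denominator. CD4 T cells gave 1.05 with the stricter filter, CD8 T cells 0.896 without Trdc UMIs, NK cells 1.24 with the stricter gate, and monocytes or macrophages (0.969) gave 1.02 unfiltered and 1.11 without high doublet scores. Without cycling cells the median log2 ratio was 0.049 in B cells (0.09 with them), 0.15 in CD4 T (-0.10), 0.032 in CD8 T (-0.11) and -0.033 in NK cells (0.43); it was -0.24 in CD8 T cells unfiltered and 0.33 in NK cells with a pseudocount of 5 CPM. Counts past 1.5-fold without cycling cells were 0 (1 with them) higher in B cells, 2 (4) lower in CD8 T cells, and 0 (11) higher and 1 (0) lower in NK cells. The causes were not tested. High doublet scores marked 12.2% of CKO and 23.0% of WT cycling cells. Depth limits genes with few UMIs in the smaller T classes.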

Other observations

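The cycling B lineage cells also differed among themselves. They were divided at the median share, over both libraries, of 67 genes of the histone clusters (symbols that begin with Hist), most of whose transcripts accumulate in S phase, a division made after seeing the data. Members stood at 4512 CPM in the 80 CKO cells with more histone RNA and 2880 CPM in the 70 with less, a ratio of 1.57 (1.5 to 1.64), and in WT at 4520 CPM in 40 cells and 3540 CPM in 51, a ratio of 1.28 (1.22 to 1.34). Rrm2 (3.91 in CKO, 3.04 in WT), Tyms (3.85 in CKO, 2.63 in WT), Pola1 (2.30 in CKO, 1.88 in WT) and Rrm1 (2.17 in CKO, 1.75 in WT) were higher in the cells with more histone RNA. Mcm2 was lower in them, at 59.5 against 95.3 CPM in CKO (ratio 0.625, 0.464 to 0.840). In WT it stood at 44.8 against 93.8 CPM (ratio 0.478, 0.310 to 0.720). Its ring partner Mcm7 was higher, at 1.24 (1.02 to 1.52) in CKO and 1.34 (1.05 to 1.71) in WT. Mcm5 had ratios of 1.29 (1.03 to 1.61) in CKO and 1.19 (0.926 to 1.53) in WT. Mcm3 (1.16 in CKO, 0.818 in WT), Mcm4 (0.881 in CKO, 0.843 in WT) and Mcm6 (0.948 in CKO, 0.861 in WT) had intervals that include 1. Mitosis genes were higher in the cells with more histone RNA, at a ratio of 2.46 in CKO and 2.72 in WT.

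In cycling monocytes or macrophages (26 CKO and 20 WT cells) the summed ratio was 1.05 (0.980 to 1.12). In cycling neutrophils (23 CKO and 19 WT cells) members stood at 2428 CPM in CKO and 3229 CPM in WT. Erythroid cells numbered 17 in CKO, of which 10 were cycling at 5326 CPM, the highest level of any class with 10 or more cycling cells, and 4 in WT, none of them cycling.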
